A study of Bos taurus with 10 samples.

Results

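The genes described here build and run the motile cilia of the oviduct. They were chosen by name, as 46 symbols of multiciliation factors, axonemal proteins and other genes of multiciliated cells. Of the 46 symbols, 40 were rows among the 26804 genes of the expression table. LRRC6 is an older symbol of DNAAF11, which was present, and CFAP53, SPAG16, HYDIN, CFAP44 and PIFO were not analysed here. The values come from bovine (Bos taurus) oviductal organoids, three-dimensional cultures grown from cells scraped from the lining of the oviduct. All organoids developed at 37 °C, the thermoneutral temperature, and the heat stress (HS) cultures spent the last day at 42 °C. RNA was sequenced from 5 libraries per temperature, with replicates lettered A to E. Each replicate was a pool of oviducts in diestrus from a pair of animals, and the same oviducts were represented at both temperatures, so that 37C A and 42C A, for example, share their pool. The labels give no treatment other than temperature.

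The epithelium of the oviduct holds secretory cells and multiciliated cells, whose beating cilia move fluid, gametes and the embryo. A multiciliated cell arises when multicilin (MCIDAS) starts a program in which CCNO, DEUP1 and CCDC78 serve the mass production of centrioles, and MYB, FOXJ1, RFX2 and RFX3 act as transcription factors. Each centriole docks at the cell surface as a basal body and templates an axoneme, a ring of microtubule doublets around a central pair. Tektins and microtubule inner proteins lie inside the doublets, dynein arms drive sliding, and radial spokes, the central pair and the nexin-dynein regulatory complex control the beat.

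Values are TPM, a length-corrected share of the transcripts of a library, so that levels can be compared between genes. Temperatures were compared over all 5 thermoneutral libraries and 4 of the 5 HS libraries, without 42C B, which was taken to be the HS library that the study set aside. A gene was tested if it reached 1 TPM in 4 or more of these 9 libraries, with limma on the log2(TPM + 1) scale. It counted as changed when its adjusted p was below 0.05 and its log2 difference was at least 1 in either direction. On this scale a gene near 1 TPM needs a larger fold of TPM to pass than an abundant gene. A low gene under the fold threshold can therefore still have changed by a large fold in TPM. Differences are 42 °C minus 37 °C, and adjusted p-values cover all 12149 genes tested. In whole cultures, fewer cells of a type and less RNA per cell cannot be told apart.

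The heat shock response marked the labelled temperatures in every library. The summed level of 6 heat shock genes was 3996 to 4742 TPM at 37 °C, 12240 TPM in 42C A, 23090 to 25970 TPM in the other 3 tested HS libraries, and 41080 TPM in 42C B. On the first principal component, which held 58.9% of the variance, 42C A lay at 2.17 between the thermoneutral libraries (-49.5 to -43.5) and 42C C, D and E (51.2 to 55.9), and 42C B lay at 72.2. The organoids held the epithelial markers EPCAM (520.6 to 752.0 TPM at 37 °C) and PAX8 (66.0 to 84.3 TPM at 37 °C), while the oviductal glycoprotein OVGP1 stayed under 1 TPM in all 10 libraries.

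At 37 °C the motile cilia genes were transcribed at low levels. Of the 40 genes, 5 had a mean of 10 TPM or more, 33 had a mean under 5 TPM and 11 a mean under 1 TPM. The highest were CAPS, a calcium-binding protein of ciliated cells, at 34.9 ± 17.9 TPM (SD, n = 5), the dynein assembly factor DNAAF5 at 22.5 ± 2.17 TPM and FOXJ1 at 21.6 ± 9.39 TPM. TPPP3, a tubulin-binding protein, followed at 11.6 ± 5.80 TPM and CCDC78 at 10.7 ± 2.65 TPM. Neighbours in this order overlapped between libraries. The outer arm heavy chains DNAH5 and DNAH9, the tektin TEKT4 and the central pair protein SPAG17 were under 1 TPM in all 10 libraries, so that the organoids held transcripts of the master regulator FOXJ1 with few transcripts of several large axonemal components.

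**Figure D1:**
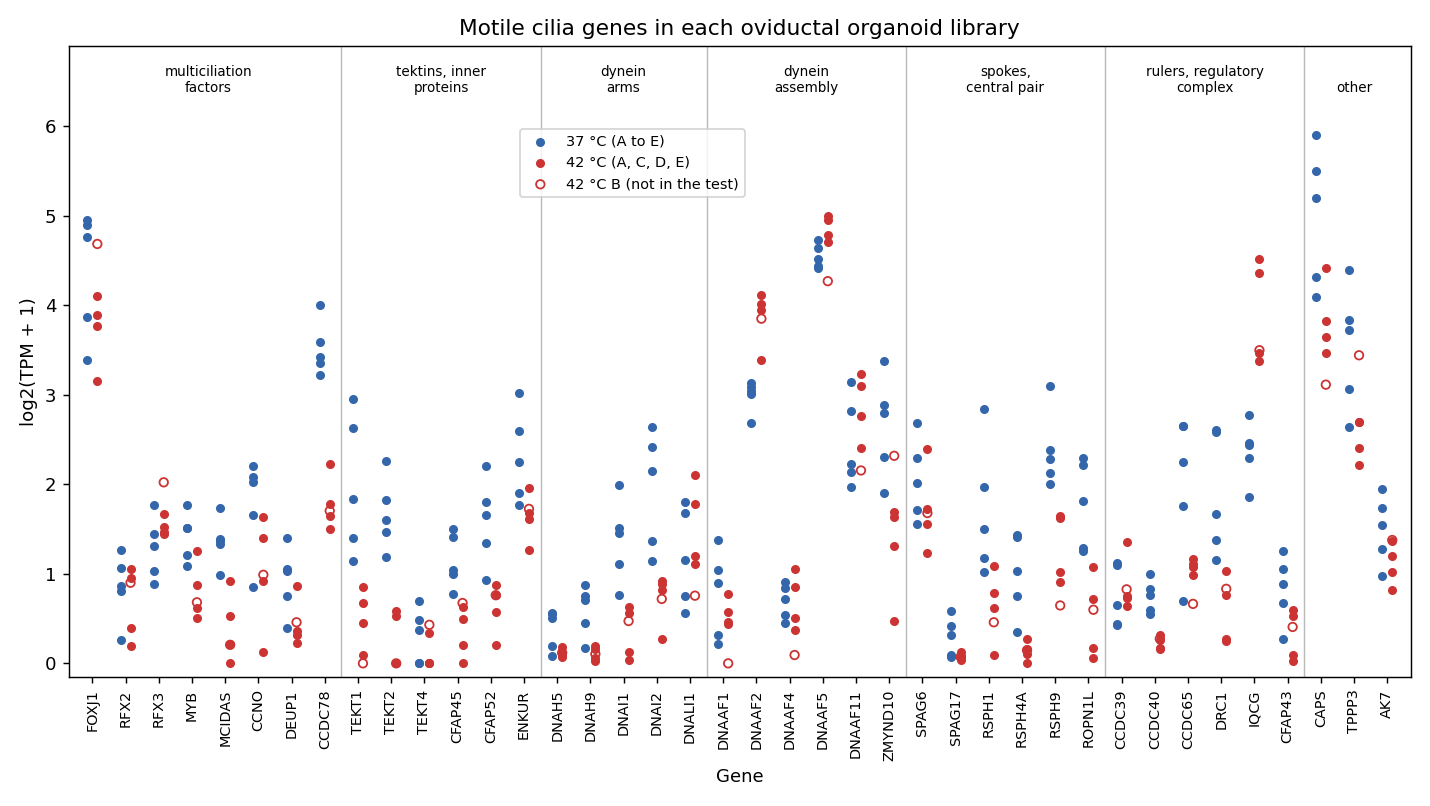
Level of each of the 40 motile cilia genes, as log2(TPM + 1) on the vertical axis, with the genes grouped by role. Each filled point is 1 library at 37 °C (blue, 5 libraries) or 42 °C (red, 4 libraries), and the open point is 42C B; CCDC78 separates fully by temperature, IQCG does so in the opposite direction, and FOXJ1 overlaps.

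The thermoneutral pools differed widely among themselves in these genes. Between the lowest and the highest of the 5 libraries the tested motile cilia genes spanned a median of 2.96 fold, from 1.25 fold in DNAAF5 to 8.57 fold in CCDC65. For the 20 of them with a mean of 1 to 5 TPM the median was also 2.96 fold, against 2.03 fold for all 2291 tested genes at that level. The library 37C B was the highest of the 5 in 26 of the 40 genes, and it was the highest in 11.6% of all genes tested. In turn, 37C A was the lowest in 26 of the 40, and in 28.4% of all genes tested. The summed level of the 40 genes was 113.6, 259.5, 185.0, 129.5 and 209.0 TPM in 37C A to E. At 42 °C the sum was 119.9, 131.0, 107.0 and 128.9 TPM in 42C A, C, D and E, and 114.1 TPM in 42C B. The HS libraries thus lay close together at the level of 37C A and 37C D, which they overlapped, and under 37C B, C and E. The difference between the group means was -57.62 TPM, and -37.57 TPM without 37C B.

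**Figure D2:**
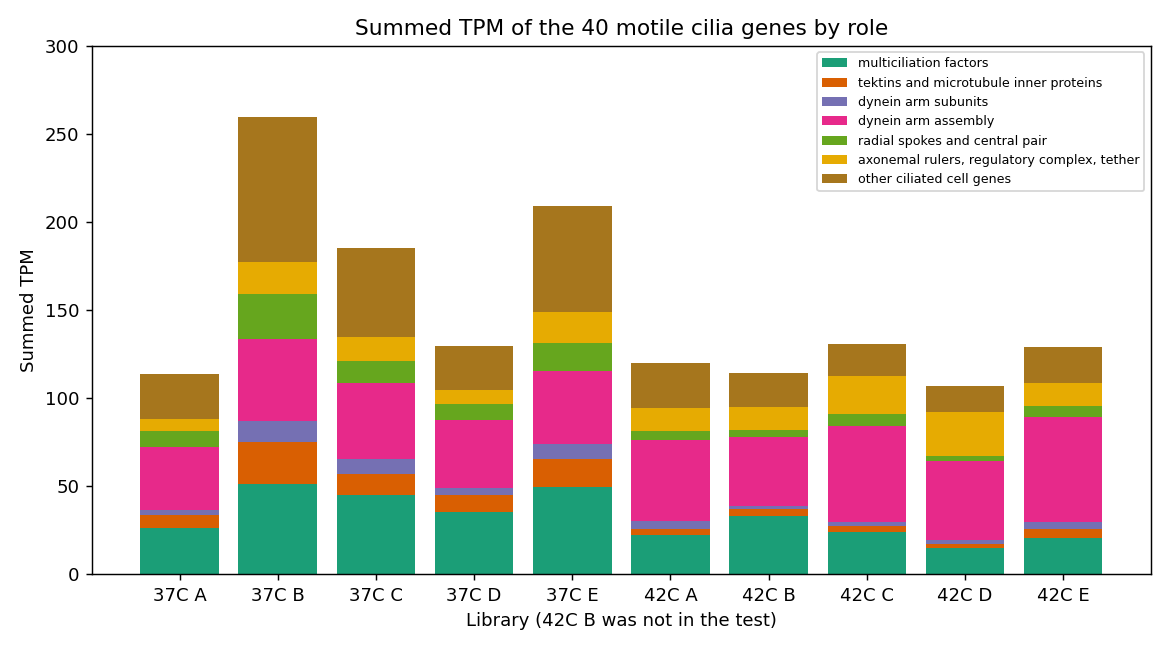
Summed TPM of the 40 motile cilia genes in each of the 10 libraries, stacked by role. The 5 bars at 37 °C reach 113.6 to 259.5 TPM and the 5 bars at 42 °C 107.0 to 131.0 TPM, and the dynein assembly share is as tall at 42 °C as at 37 °C while the tektin and radial spoke shares shrink.

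Under HS, 12 of the 40 genes fell and 1 rose. The 12 were the centriole amplification gene CCDC78, the tektins TEKT1 and TEKT2, the dynein intermediate chains DNAI1 and DNAI2, the assembly factor ZMYND10, the radial spoke genes RSPH1, RSPH9 and ROPN1L, the regulatory complex gene DRC1, and CAPS and TPPP3. The gene that rose was IQCG, another member of the regulatory complex. Of all 12149 genes tested, 7.14% fell and 15.8% rose. Of the 40 genes, 27 passed the filter on low values, and 13 did not and were not tested (RFX2, DEUP1, TEKT4, CFAP45, DNAH5, DNAH9, DNAAF1, DNAAF4, SPAG17, RSPH4A, CCDC39, CCDC40 and CFAP43). The filter itself leaned on temperature, as 15 of the 27 passed through the thermoneutral libraries alone and 1, DNALI1, through the HS libraries alone. Of the 12 that fell, 4 passed with no HS library at 1 TPM, 5 with 1 to 3 such libraries, and CCDC78, CAPS and TPPP3 with 4 in both groups. Fitted without any filter, all 40 genes were tested, and 12 fell and 1 rose, against 5.03% and 11.7% of 16952 genes, so that the share that fell lay above the background and the share that rose below it. The median difference of the 40 genes in that fit was -0.63, against 0.13 over all genes in it.

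The libraries were also compared without a model. In 14 of the 40 genes every one of the 4 HS libraries lay below every thermoneutral library, and in 2, IQCG and DNAAF2, every HS library lay above. Among 16952 genes with any value above 0 these shares were 9.46% and 27.6%. With 42C B added, 13 genes stayed fully below (ZMYND10 no longer did) and 2 above, against 8.91% and 16.4%.

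Scaling moves these values together. Over all tested genes the median difference was 0.30, and it was -0.01 after scaling each library by its median ratio. All 12 falling genes and IQCG kept their call with that scaling, which added CCDC65, CFAP52 and MCIDAS to those that fell, against a background of 11.8% lower and 7.59% higher. They also kept it with quantile normalization, where 14 fell against 10.3% and IQCG alone rose against 8.07%.

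The number of genes past the fold threshold moved with other settings. At any fold, 17 of the genes were lower and 3 higher (IQCG, DNAAF2 and DNAAF5), against 18.1% and 45.1% of all genes. With a pseudocount of 0.1, MYB, MCIDAS and CFAP52 joined the 12, against 8.64% lower and 19.5% higher. A pseudocount of 5, which shrinks the differences of low genes, left CCDC78 lower and IQCG higher, against 4.01% and 7.28%. With all 10 libraries CCDC65 took the place of TPPP3 among the 12 lower genes, against 8.92% lower. Without 42C A, TPPP3 was not called while CFAP52 and MCIDAS were, giving 13 lower genes, and DNAAF2 rose with IQCG, against 9.13% and 18.8%.

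**Figure D3:**
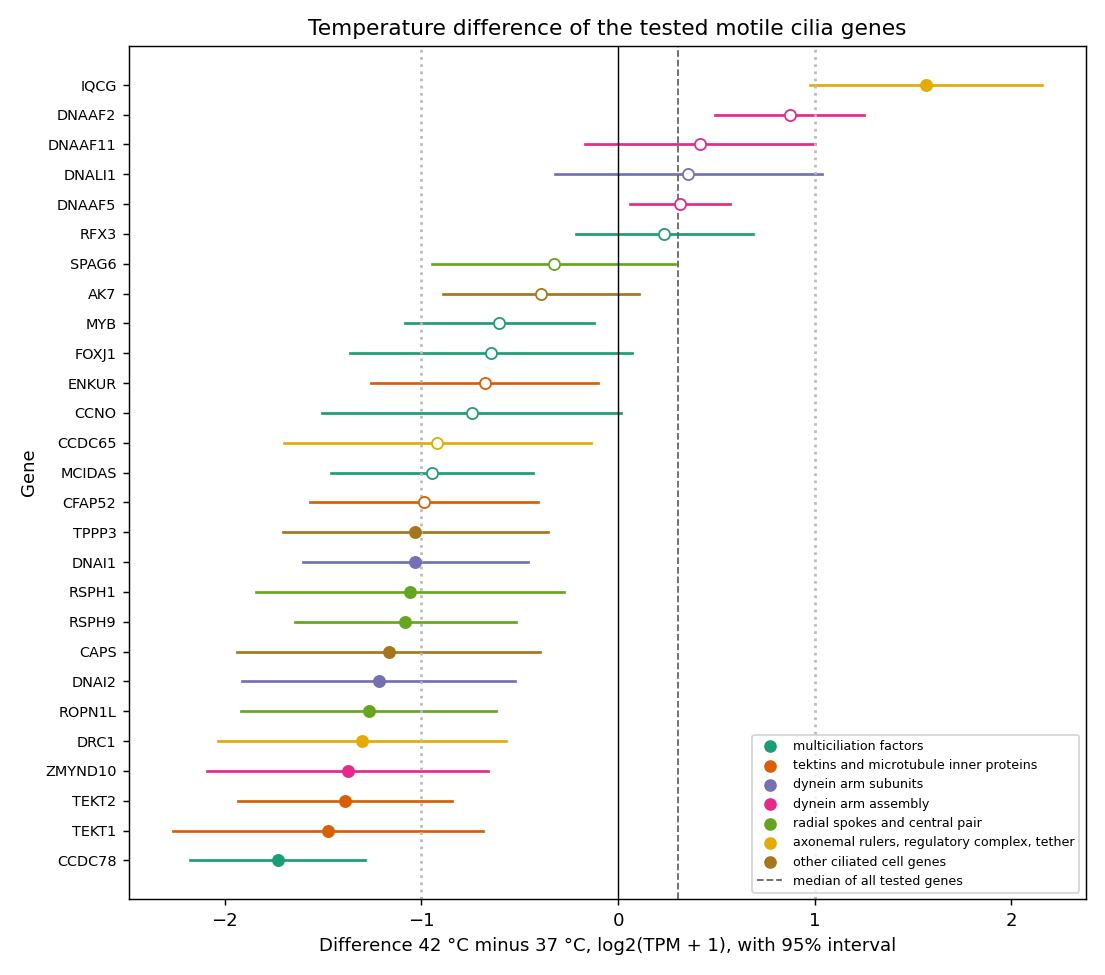
Difference between 42 °C and 37 °C in log2(TPM + 1) for the 27 tested motile cilia genes, with its 95% interval, coloured by role. Filled points are called changed, dotted lines mark a difference of 1 in size and the dashed line is the median of all tested genes (0.30); 12 filled points lie left of the lower line and IQCG right of the upper one.

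Among the 8 multiciliation factors, only CCDC78 was called. CCDC78 (ENSBTAG00000002470), a protein of the structures that produce centrioles, read 9.26, 15.1, 8.33, 11.1 and 9.71 TPM in 37C A to E. In 42C A, C, D and E it read 3.70, 1.84, 2.13 and 2.42 TPM, and 2.26 TPM in 42C B. No HS library came near the lowest thermoneutral one, and 42C A, the mildest by its heat shock genes, was the highest of the HS libraries. The difference was -1.73 (SE 0.203, adjusted p = 5.61e-05), the largest fall of the tested motile cilia genes on the log2(TPM + 1) scale. That scale understates changes of low genes such as TEKT2, whose mean went from 2.28 to 0.238 TPM, against 10.7 to 2.52 TPM in CCDC78. CCDC78 was called lower under every alternative setting and without any single library.

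MCIDAS, a coregulator of the program, was low throughout. It read 0.980, 1.53, 2.34, 1.63 and 1.58 TPM in 37C A to E and 0.894, 0.447, 0 and 0.166 TPM in 42C A, C, D and E, with 0.154 TPM in 42C B. All HS libraries lay below the thermoneutral ones, 42C A by little, and 42C D was listed at 0. The difference of -0.95 had an adjusted p of 0.00427 and missed the fold threshold, which it passed without 42C A (-1.11).

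FOXJ1, the regulator of ciliary gene transcription, overlapped between temperatures. It read 9.50, 30.0, 26.2, 13.7 and 28.8 TPM in 37C A to E. In 42C A, C, D and E it read 12.7, 16.2, 7.94 and 13.8 TPM, and 24.8 TPM in 42C B. The 3 thermoneutral pools with most FOXJ1 lay above every tested HS library, and the other 2 lay within the HS range. The difference was -0.64 (95% interval -1.36 to 0.07, adjusted p = 0.105), and with median-ratio scaling it was -0.97 with an adjusted p of 0.0248, again under the fold threshold.

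RFX3, which acts on cilia of both the motile and the primary kind, read 1.04, 0.844, 1.49, 2.41 and 1.73 TPM in 37C A to E and 1.87, 1.72, 2.17 and 1.76 TPM in 42C A, C, D and E. These ranges overlapped, with a difference of 0.23 (95% interval -0.21 to 0.68, adjusted p = 0.335), and 42C B held 3.07 TPM. Its relative RFX2 was not tested and overlapped too, at 0.196 to 1.40 TPM at 37 °C and 0.142 to 1.07 TPM in the tested HS libraries.

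MYB read 1.12, 1.85, 1.85, 1.32 and 2.41 TPM in 37C A to E. It read 1.39, 0.416, 0.535 and 0.831 TPM in 42C A, C, D and E, so that 42C A alone reached the thermoneutral range (-0.60, adjusted p = 0.0307, under the fold threshold). CCNO, a cyclin needed for centriole amplification, read 3.06, 0.813, 3.22, 3.62 and 2.15 TPM in 37C A to E and 1.65, 2.10, 0.895 and 0.0881 TPM in 42C A, C, D and E. The low library 37C B kept the CCNO groups overlapping (-0.74, adjusted p = 0.0808). DEUP1, a scaffold of the centriole-producing deuterosome, spanned 0.318 to 1.64 TPM at 37 °C and 0.169 to 0.816 TPM at 42 °C and was not tested.

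The tektins and microtubule inner proteins showed the fullest separation of any role. In 4 of the 6 genes, TEKT1, TEKT2, CFAP45 and CFAP52, every HS library lay below every thermoneutral one, with 42C B as well. Among all genes with any value above 0 this held for 9.46%, and for 8.91% with 42C B. All 6 genes were low, with means under 5 TPM at 37 °C. TEKT1 (ENSBTAG00000007437) read 1.64, 6.73, 2.57, 1.203 and 5.18 TPM in 37C A to E and 0.592, 0.362, 0.0679 and 0.803 TPM in 42C A, C, D and E (-1.47, adjusted p = 0.00400). TEKT2 (ENSBTAG00000021714) read 1.28, 3.78, 2.54, 2.03 and 1.77 TPM in 37C A to E and 0.447, 0, 0 and 0.506 TPM in 42C A, C, D and E (-1.39, adjusted p = 0.000579). TEKT2 was also listed at 0 in 42C B, so that 3 of the 5 HS libraries were at 0, while no thermoneutral library held under 1 TPM.

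CFAP52 missed the fold threshold at -0.99 (adjusted p = 0.00684), from a mean of 2.14 to 0.540 TPM. ENKUR overlapped, at 2.41 to 7.10 TPM at 37 °C and 1.40 to 2.90 TPM at 42 °C (-0.68, adjusted p = 0.0405, under the fold threshold). The summed level of these 6 genes was 7.23 to 23.5 TPM at 37 °C and 2.41 to 5.45 TPM in the tested HS libraries.

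Among the dynein arm subunits, the intermediate chains of the outer arm fell. DNAI1 (ENSBTAG00000008538) read 0.701, 2.97, 1.75, 1.16 and 1.85 TPM in 37C A to E and 0.545, 0.0900, 0.0282 and 0.472 TPM in 42C A, C, D and E (-1.03, adjusted p = 0.00493). DNAI2 (ENSBTAG00000016732) read 1.57, 5.26, 4.33, 1.21 and 3.42 TPM in 37C A to E and 0.889, 0.848, 0.766 and 0.211 TPM in 42C A, C, D and E (-1.22, adjusted p = 0.00573). In neither gene did the groups overlap, and no HS library held 1 TPM of either. With the pool as a block DNAI1 was at -0.88, under the fold threshold, and DNAI2 kept its call. DNALI1, a light intermediate chain of the inner arm, did not follow them, with 0.478 to 2.48 TPM at 37 °C and 1.16 to 3.29 TPM at 42 °C (0.36, 95% interval -0.32 to 1.03, adjusted p = 0.328).

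The dynein assembly factors, which fold and preassemble the arms in the cytoplasm, moved in both directions. ZMYND10 (ENSBTAG00000020965) read 2.74, 9.40, 5.94, 3.95 and 6.38 TPM in 37C A to E. In 42C A, C, D and E it read 1.49, 2.11, 0.385 and 2.22 TPM (-1.38, adjusted p = 0.00331), all below the thermoneutral libraries, while 42C B at 3.99 TPM lay within their range. DNAAF2 went the other way, from 7.77, 7.03, 7.27, 5.46 and 7.498 TPM in 37C A to E to 9.46, 15.2, 14.4 and 16.3 TPM in 42C A, C, D and E. Every HS library lay above every thermoneutral one, 42C A least so, and the difference of 0.87 (adjusted p = 0.00110) missed the fold threshold, which it passed without 42C A (1.03). With median-ratio scaling the DNAAF2 difference was 0.56 (adjusted p = 0.0145).

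DNAAF5 was the steadiest of all the genes. It read 22, 20.7, 23.9, 25.5 and 20.3 TPM in 37C A to E and 26.6, 29.9, 25.2 and 31.0 TPM in 42C A, C, D and E (0.31, adjusted p = 0.0335, under the fold threshold). The median of all genes was 0.30, and with median-ratio scaling the DNAAF5 difference was -0.02. DNAAF11 overlapped at 2.93 to 7.85 and 4.29 to 8.40 TPM (0.42, adjusted p = 0.191). The summed level of the assembly factors was 36.0 to 46.8 TPM at 37 °C and 44.95 to 59.5 TPM at 42 °C, carried by DNAAF2 and DNAAF5.

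Of the 6 radial spoke and central pair genes, 4 were tested and 3 of these fell (RSPH1, RSPH9 and ROPN1L), against 7.14% of all genes tested. All 3 passed the filter through the thermoneutral libraries alone, where they were high, so that the count leaned on the filter. ROPN1L alone of the 3 kept its call with the pool as a block or without 37C B. RSPH1 (ENSBTAG00000021284), a spoke head protein, read 1.27, 6.18, 1.84, 1.03 and 2.91 TPM in 37C A to E and 1.12, 0.725, 0.0680 and 0.536 TPM in 42C A, C, D and E (-1.06, adjusted p = 0.0222). RSPH9 (ENSBTAG00000009549), a further spoke head protein, read 4.23, 7.56, 3.88, 3.38 and 3.003 TPM in 37C A to E and 2.09, 0.875, 1.03 and 2.13 TPM in 42C A, C, D and E (-1.08, adjusted p = 0.00331). The groups of RSPH1 overlapped, through 42C A, and those of RSPH9 did not.

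ROPN1L (ENSBTAG00000003539), a protein of the spoke stalk, read 1.44, 3.92, 2.52, 1.38 and 3.65 TPM in 37C A to E and 0.0417, 0.643, 0.129 and 1.11 TPM in 42C A, C, D and E (-1.27, adjusted p = 0.00306). It was the only falling gene besides CCDC78 in which the pair of libraries from pool A differed by more than 1 on the log2 scale (-1.23). RSPH4A, untested, was at most 0.207 TPM in the tested HS libraries and at 0.272 to 1.69 TPM at 37 °C. SPAG6, of the central pair, overlapped at 1.94 to 5.45 TPM at 37 °C and 1.35 to 4.26 TPM at 42 °C (-0.33, 95% interval -0.95 to 0.29, adjusted p = 0.327).

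Within the group of axonemal rulers, regulatory complex and tether, DRC1 and IQCG moved in opposite directions although both encode parts of the nexin-dynein regulatory complex. DRC1 (ENSBTAG00000009649) read 1.23, 5.10, 2.19, 1.60 and 5.01 TPM in 37C A to E and 1.05, 0.206, 0.696 and 0.191 TPM in 42C A, C, D and E (-1.30, adjusted p = 0.00538). IQCG (ENSBTAG00000018025) read 3.92, 4.44, 5.85, 2.63 and 4.51 TPM in 37C A to E and 9.41, 19.6, 21.99 and 10.04 TPM in 42C A, C, D and E, with 10.3 TPM in 42C B (1.56, SE 0.270, adjusted p = 0.000459). Each HS library held more IQCG than any thermoneutral library, and 42C C and 42C D held the most.

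IQCG was called higher under all alternatives and without any single library. CCDC65, another part of the same complex, was at 0.620 TPM in 37C A but 2.37 to 5.31 TPM in the other thermoneutral pools, and at 0.977 to 1.24 TPM at 42 °C (-0.92, adjusted p = 0.0406, under the fold threshold). Without 37C A its difference was -1.24 and it was called lower. The ruler genes CCDC39 and CCDC40 and the tether gene CFAP43 were not tested. CCDC40 lay fully lower at 42 °C, at 0.121 to 0.249 TPM against 0.469 to 1.001 TPM, whereas CCDC39 and CFAP43 overlapped.

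CAPS (ENSBTAG00000006069), the most abundant of the genes at 37 °C, read 19.0, 59.1, 35.9, 16.1 and 44.4 TPM in 37C A to E. It read 20.4, 11.5, 10.1 and 13.2 TPM in 42C A, C, D and E and 7.66 TPM in 42C B (-1.17, adjusted p = 0.0128). The groups overlapped through 42C A, which held slightly more than its own pool at 37 °C. TPPP3 (ENSBTAG00000019822) read 5.24, 20.1, 12.2, 7.36 and 13.3 TPM in 37C A to E and 4.30, 5.47, 3.64 and 5.48 TPM in 42C A, C, D and E (-1.03, adjusted p = 0.0122). With the pool as a block, or without 37C B, both CAPS (-0.94) and TPPP3 (-0.81) were under the fold threshold. The overlap of TPPP3 came from 37C A, and 42C B, at 9.88 TPM, also lay within the thermoneutral range. AK7, an adenylate kinase of the axoneme, overlapped (-0.39, 95% interval -0.89 to 0.10, adjusted p = 0.150).

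Because each letter was 1 pool of oviducts, the temperatures can also be set against each other pool by pool. At 42 °C the level was lower than at 37 °C in 23 of the 40 genes in pool A, 35 in pool B, 33 in pool C, 33 in pool D and 31 in pool E. Of all tested genes, 31.4%, 60.6%, 36.8%, 39.3% and 34.8% were lower in these pools, so that pool B, with the set-aside library, was lower over most genes. The 12 falling genes were lower in all pools, apart from CAPS in pool A (0.10). They were called from these same libraries, apart from 42C B, so that this agreement was largely set by the call and is no separate support. The median difference of the 12 was -0.52 in pool A, -2.09 in B, -1.38 in C, -1.06 in D and -1.27 in E. Pool A thus moved least, and its HS library also held the smallest rise of the heat shock genes; the part of that in these values was not tested.

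**Figure D4:**
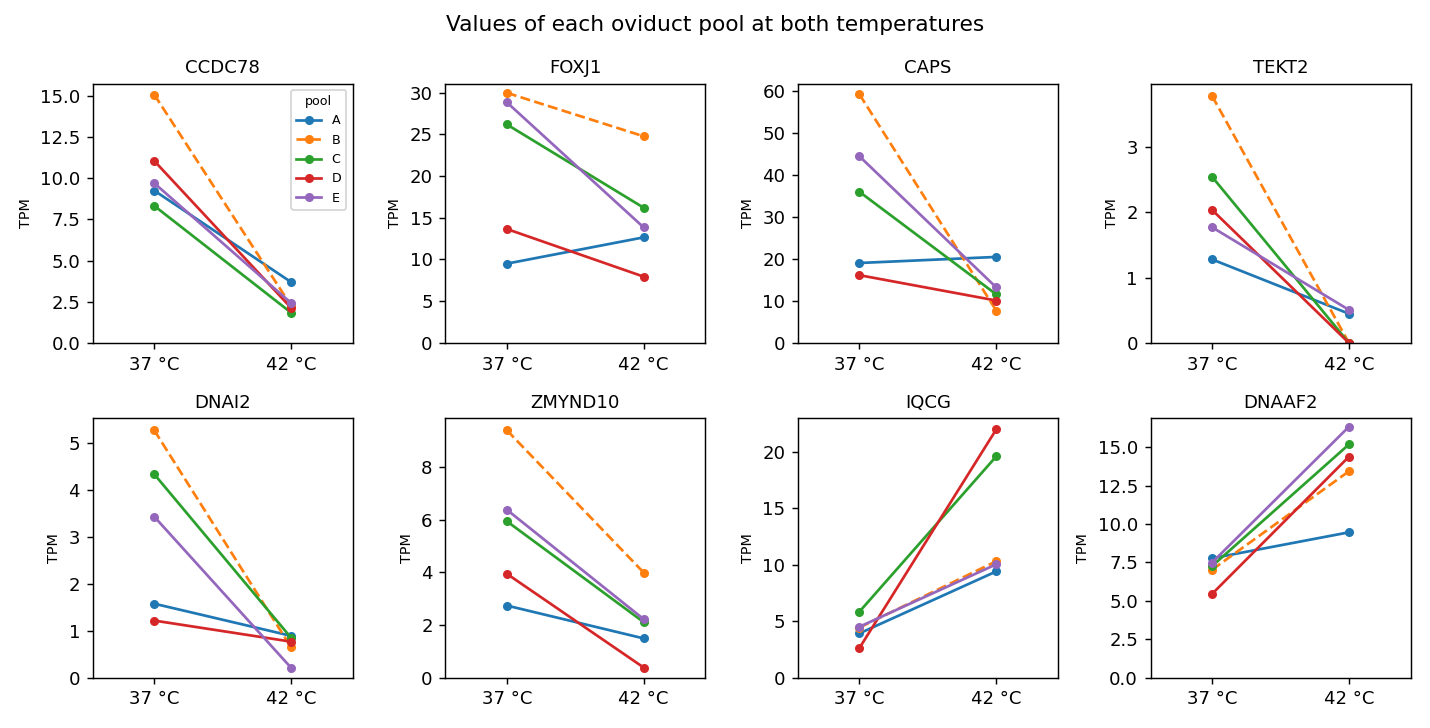
TPM of 8 motile cilia genes in each of the 5 oviduct pools at 37 °C and 42 °C, each line joining the libraries of 1 pool (pool B, dashed, was in the test at 37 °C only). CCDC78, TEKT2, DNAI2 and ZMYND10 descend in all 5 pools, FOXJ1 and CAPS rise slightly in pool A and descend in the others, and IQCG and DNAAF2 climb in all 5.

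A fit with the pool as a block, in which only A, C, D and E have both temperatures, called 7 genes lower (CCDC78, TEKT1, TEKT2, DNAI2, ZMYND10, ROPN1L and DRC1) and IQCG higher, against 7.15% and 15.2% of all genes. The other 5 dropped under the fold threshold, with differences of -0.94 in CAPS, -0.88 in DNAI1, -0.77 in RSPH1, -0.90 in RSPH9 and -0.81 in TPPP3, and with adjusted p-values of 0.0238, 0.0188, 0.0283, 0.00937 and 0.00841. Leaving out 37C B, the library with most of these transcripts, also left these 7 genes, against 6.91% of all genes, and DNAI1 no longer passed the filter. The differences are the same in both fits by design, as 37C B has no HS partner in the block. The fits are therefore not separate checks. Those 7 genes and IQCG were called whichever library was left out.

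A longer list of 146 further motile cilia genes, of which 132 were rows and 73 were tested, moved less evenly. There 10 genes fell, 3 rose and 60 were not called, against 7.14% lower and 15.8% higher over all genes, and the median difference was 0.00, against 0.30 over all genes. A further 12 were lower and 15 higher at an adjusted p below 0.05 without reaching the fold threshold. At any fold, 22 of the 73 were thus lower and 18 higher, against 18.1% and 45.1% of all genes. Without a filter 129 of them were tested, with a median of -0.13, and 10 fell and 3 rose, against 5.03% and 11.7% of all genes, so that the share that fell lay near the background. Without 37C B, 64 were tested and 5 fell, which was again near the background of 6.91%.

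The genes with the smallest adjusted p among the falls were of several roles. PIH1D1, a subunit of the R2TP cochaperone that also serves other complexes, was the most abundant of them and fell from 55.4 ± 3.68 to 23.5 ± 5.14 TPM (n = 5 and 4, difference -1.23, adjusted p = 4.67e-05). CFAP300, which takes part in dynein transport and assembly, fell from 1.77 to 6.02 TPM at 37 °C to 0.0713 to 1.30 TPM at 42 °C (-1.69). SNTN, a protein of the ciliary tip, fell from 0.983 to 4.10 TPM to at most 0.182 TPM (-1.47), and it was listed at 0 in 42C B. DRC3 (-1.19), CFAP73 (-1.36), DAW1 (-1.28), DYDC2 (-1.20) and FAM216B (-1.45) fell as well, and among these 8 only FAM216B overlapped between the groups. The 8 were named for their small adjusted p-values, so that little overlap follows from the choice. In the whole further list, 21 of 132 rows lay fully below at 42 °C and 11 fully above. Among genes with any value above 0 these shares were 9.46% and 27.6%.

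The 3 further genes that rose were CFAP20, DNAL1 and IQCD. CFAP20, which is also found in nonmotile cilia and the nucleus, rose from 26.4 to 32.2 TPM at 37 °C to 53.0 to 88.02 TPM at 42 °C (1.27, adjusted p = 4.20e-05), and 42C B held 117.4 TPM. DNAL1, a light chain of the outer arm, rose from 1.24 to 3.55 TPM to 7.70 to 11.7 TPM (1.68), but 42C B at 1.85 TPM stayed within the thermoneutral range. IQCD, of the regulatory complex as IQCG is, rose from 0.476 to 1.51 TPM to 2.18 to 4.66 TPM (1.22). With median-ratio scaling DNAL1 alone remained called, at 1.40, with CFAP20 at 0.93 and IQCD at 0.99.

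The machinery of intraflagellar transport, which builds primary and motile cilia alike, was measured beside these genes. Of 28 tested genes 1 fell and 4 rose, which was no more than the 7.14% lower and 15.8% higher over all genes, and the median difference was 0.42, or 0.12 with median-ratio scaling, under which none of the 4 was called higher. The genes called, named after their values were seen, were IFT74 (-1.64), TTC26 (1.24), TTC30B (1.21), WDR19 (1.09) and KIF3A (1.004). The summed level of the 29 genes present was 314.6 to 384.2 TPM at 37 °C and 444.1 to 580.5 TPM in the tested HS libraries, which did not overlap. In 42C B the sum was 315.9 TPM, within the thermoneutral range.

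Markers of other cells moved alongside the temperature. Of 13 tested markers of secretory epithelium 4 fell (KRT19, MSLN, TFF3 and SLC34A2) and 1 rose (SPP1), against 7.14% and 15.8% of all genes. Their summed level, most of it KRT7, KRT19 and MSLN, was 12650 to 15240 TPM at 37 °C and 6714 to 8517 TPM in the tested HS libraries. In 3 of the 14 markers present every tested HS library lay below every thermoneutral one, and in 3 above. Among genes with any value above 0 these shares were 9.46% and 27.6%. EPCAM (0.66, adjusted p = 0.00193) and PAX8 (0.24, adjusted p = 0.0448) were among those above, both under the fold threshold. WT1 (-0.95, adjusted p = 0.000795), PGR (-0.62, adjusted p = 0.0275) and KRT7 (-0.57, adjusted p = 0.00537) were lower, also under the fold threshold. ELF3 (0.47, adjusted p = 0.0552), ESR1 (0.45, adjusted p = 0.0607) and CRISP3 (-0.53, adjusted p = 0.143) were not called. Of 4 tested mesothelial markers 3 fell (UPK3B, LRRN4 and HP), against 7.14% of all genes, and PODXL was not called (0.34, adjusted p = 0.330). The mesothelial sums were 377.6 to 549.3 and 106.9 to 287.2 TPM, and CALB2, a defining marker of those cells, was under 1 TPM in all libraries. Fibroblast markers were at or near 0 throughout, at summed levels of 0.865 to 3.04 TPM and 0.756 to 1.55 TPM, with PDGFRB listed at 0 in all 10 libraries. Leukocyte markers summed to at most 0.314 TPM in any tested library, with CSF1R, ITGAM and MS4A1 listed at 0 in all 10. Smooth muscle markers summed to 5.13 to 11.6 TPM and 4.56 to 6.74 TPM, of which ACTA2 fell and MYLK rose, and of the endothelial markers, at 11.7 to 17.1 TPM and 11.4 to 13.3 TPM, none was called. The part of the secretory and mesothelial changes in the values of the motile cilia genes was not tested.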

How the data were processed

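RNA was sequenced from 5 libraries of oviductal organoids at 37 °C and 5 at 42 °C. The authors deposited TPM per gene, from reads mapped in CLC Genomics Workbench to ARS-UCD1.2, a bovine build. Bowtie2 2.2.2, bcl2fastq and DESeq2 appear in the submitters' processing notes with no role given. Every TPM column sums to 1000000, so that the values hold no read counts. The study reports the average number of reads per library, which was not used here. No counting interval was therefore given, and a 0 is reported as listed at 0. As the values are not counts, no count model was fitted. Columns were matched to samples by title, and coordinates and sequences were not used here.

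Genes that reached 1 TPM in 4 or more of 9 libraries were tested with limma 3.58.1 in R 4.3.3 (lmFit, eBayes with trend, two-sided) on log2(TPM + 1), which understates changes of low genes, with Benjamini-Hochberg adjustment over all 12149 genes. Calls needed an adjusted p under 0.05 and at least 1 log2 unit in either direction. These numbers follow the study's thresholds, which it applied to a count model. On log2(TPM + 1) the same unit asks for a larger fold of TPM in low genes, so that the calls are stricter for them. The study does not name its set-aside HS replicate in its text, and 42C B was inferred from its later plots. The study's 42 °C average of CRYAB, 5519 TPM, equals the mean of 42C A, C, D and E. In 42C B the CRYAB value was 13260 TPM. The fit was tested on simulated data, in which changes were placed only in genes of higher level. That simulation therefore does not show how the fit recovers changes of low genes, as most motile cilia genes are. Figures were drawn with matplotlib 3.10.9.

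Letters pair the samples, since the same oviducts went to both temperatures, and same-letter deviations from the group means correlated at 0.125 to 0.369 in the 5 pairs. Replicates are pools of animals.

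The genes and lists were chosen with earlier results of these data known. Values in every library are given for called genes, for tested multiciliation factors and for genes that stand apart by level, and the others by ranges and counts; from the further list, the called genes with the smallest adjusted p, up to 8 lower and 4 higher, are named. Alternatives were pseudocounts of 0.1 and 5, other filters, median-ratio and quantile scaling, all 10 libraries, a call at any fold, the pool as a block and each library left out in turn.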

Additional observations from a re-analysis of the deposited data

Results flagged for a closer look

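RSPH9, a radial spoke head gene, had 1 thermoneutral library far above the other 4. In 37C B it read 7.56 TPM, and the gap to the next library was 0.73 of the whole range of the group. Groups of 4 or 5 libraries were examined in this way for 56 sets of values, and chance sets apart about 1 in 20 of them. Without 37C B the RSPH9 difference was -0.90, under the fold threshold.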

How the results depend on the processing

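Of the 40 motile cilia genes, 12 were called lower and 1 higher. The lower count was 1 (CCDC78) with a pseudocount of 5, which shrinks low genes most, and 7 with the replicate block; leaving out 1 library gave 7 (without 37C B) to 15 (without 37C A). The higher count was 3 at any fold and 1 to 2 without 1 library (2 without 42C A, with DNAAF2). In the further list, 10 lower calls became 19 with a pseudocount of 0.1, 1 with a pseudocount of 5 and 22 at any fold, and 5 to 11 without 1 library (5 without 37C B, and 6 without 37C C or 37C E). Its 3 higher calls became 7 with a pseudocount of 0.1, 1 with median-ratio scaling, 5 with all 10 libraries and 18 at any fold, and 3 to 7 without 1 library (7 without 42C A). Over all genes, 2782 calls became 1371 with a pseudocount of 5 and 7679 at any fold. The shares of all genes lower and higher were 7.14% and 15.8% in the main fit. They were 8.64% and 19.5% with a pseudocount of 0.1, 4.01% and 7.28% with 5, and 18.1% and 45.1% at any fold. With the block they were 7.15% and 15.2%, with median-ratio scaling 11.8% and 7.59%, and with all 10 libraries 8.92% and 13.4%. Without 37C B they were 6.91% and 15.3%, and without 42C A 9.13% and 18.8%. Without 37C A, 876 of 12080 genes were lower. DNAAF5 changed sign, to -0.017 with median-ratio scaling and -0.025 with quantile normalization. CCDC78 and IQCG kept their calls under every alternative, and TEKT1, TEKT2, DNAI2, ZMYND10, ROPN1L and DRC1 under all but the pseudocount of 5. TPPP3 was under the fold threshold without 37C B, C or E or 42C A or D, and with all 10. RSPH1 was lost without 37C B or E or 42C D, RSPH9 without 37C B or 42C C or D, CAPS without 37C B, and DNAI1 without 37C B, C, D or E or 42C C or D. The replicate block changed no further call of a motile cilia gene. The cause of these changes was not tested beyond what each setting does by construction. Most genes were under 5 TPM and the values hold no read counts per gene, and the part of depth was not tested.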
